A study of Mus musculus with 21 samples.

Results

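The genes described here are 10 enzymes of threonine, glycine and one-carbon metabolism: Tdh, Gcat, Gldc, Amt, Shmt1, Shmt2, Mthfd1, Mthfd1l, Mthfd2 and Phgdh. They were taken by gene symbol, and all 10 were found among the 27968 genes of the sorted-cell table and among the 22899 genes of the coculture table. They were chosen by their expression values in these same samples, namely the FPKM values of all groups (fragments mapped to a gene, divided by its length and by the size of the library) and the contrast of OP9 with gelatin. Their own levels and differences are therefore a description with no p-value, and counts of them past the thresholds used for every gene are given only beside the share of all genes past them. The p-values printed belong to other genes, namely pathway, stress and marker genes. The lists of these genes were also drawn up with earlier results of these data known, so their p-values are not free of that choice.

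The mitochondrial threonine dehydrogenase Tdh and the ligase Gcat split threonine into glycine and acetyl-CoA, a route known for its high activity in mouse embryonic stem cells. The glycine cleavage system, with Gldc and Amt, and the serine hydroxymethyltransferases Shmt1 (cytosol) and Shmt2 (mitochondria) pass carbon units to tetrahydrofolate, and the Mthfd enzymes interconvert the resulting folates for the synthesis of purines, thymidylate and formate. Phgdh starts the synthesis of serine, the main carbon donor of the pathway, from a glycolytic intermediate.

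RNA sequencing was available for 21 libraries in 7 groups of 3. Pluripotent stem cells labelled as 129/ola (mESC, sorted for SSEA-1 and grown on embryonic fibroblast feeders) were induced for 6 to 8 days in a 3D self-assembling peptide, and colonies were then moved for 5 days onto OP9 stromal cells stopped with mitomycin C (3D+OP9) or onto 0.1% gelatin (3D+0.1% gelatin), both with SCF, IL-3 and Flt3 ligand. The coculture libraries were made from total cells and may hold OP9 RNA. From 3D+OP9, Lin-Sca-1+c-kit+ (LSK) cells were sorted with and without the endothelial protein C receptor CD201 (D5-LSKCD201+ and D5-LSKCD201-). The same CD201+ gate was applied to C57BL/6 fetal liver taken between embryonic days 12 and 13 (FL-LSKCD201+) and to the bone marrow of C57BL/6 mice aged 6 to 8 weeks (BM-LSKCD201+). The study's methods name stem cells of both strains, but by the labels strain, and growth in culture or in the animal, differ together between these last 2 groups and all others, so their parts in any such difference cannot be told apart. The values are bulk values, in which fewer cells of a type and less RNA per cell cannot be told apart either.

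The CD201 step of the gate was seen at the RNA level, since Procr, which encodes CD201, averaged 59.7 FPKM in D5-LSKCD201+ libraries, compared with 3.48 in those of D5-LSKCD201-. Kit (c-kit) averaged 44.5 and 28.8 FPKM in these groups, and Ly6a (Sca-1) 61.3 and 32.6 FPKM. However, D5-LSKCD201- libraries kept pluripotency RNA, with 6 markers summing to 901 to 918 FPKM against 1766 to 1830 in mESC and 7.71 to 8.34 in D5-LSKCD201+. In D5-LSKCD201+ libraries, 5 endothelial markers summed to 664 to 689 FPKM (at most 72.6 in every other sorted group), whereas 5 hematopoietic markers summed to 46.3 to 47.2 FPKM, against 186 to 224 in FL-LSKCD201+ and 278 to 281 in BM-LSKCD201+, and 4 of these 5 lay under 1 FPKM. The remaining one, the integrin gene Itga2b (CD41), made up nearly all of that sum and was higher in D5-LSKCD201+ (45.2 FPKM on average) than in fetal liver (8.50 FPKM, log2 difference 2.28, limma adjusted p = 2.32e-07) and bone marrow (11.6 FPKM, 1.88, limma adjusted p = 3.37e-08). Fetal liver libraries also held 5 erythroid markers at a sum of 4703 to 10787 FPKM, lowest in replicate 1, against 23.9 to 41.9 in D5-LSKCD201+ and 54.1 to 78.7 in BM-LSKCD201+. The part of erythroid RNA in the fetal liver values below was not tested. Single libraries stood apart from their group in D5-LSKCD201- (replicate 2), FL-LSKCD201+ (replicate 1), BM-LSKCD201+ (replicate 1) and 3D+OP9 (replicate 3), while the other libraries of each of these groups formed a close pair, and the values they move are given with and without them. The number of reads behind each value is unknown.

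**Figure D1:**
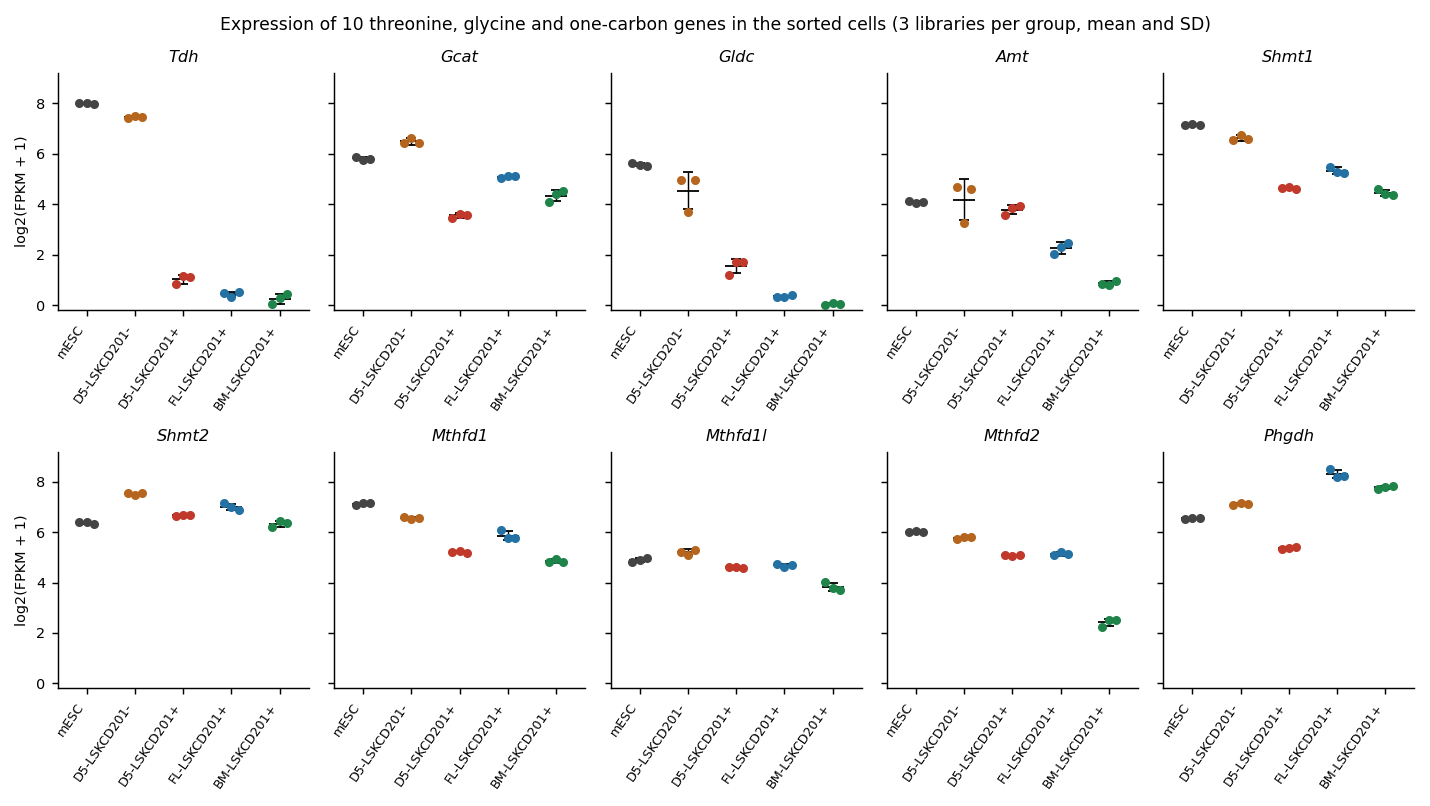
Level on the log2(FPKM + 1) scale of the 10 enzymes in the 15 sorted libraries, in 1 panel per gene with points for libraries and the mean and SD of each group of 3. Tdh goes from 256 FPKM in mESC to 1.05 in D5-LSKCD201+, whereas Shmt2 lies between 72.6 and 188 FPKM in every library.

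Tdh was read at 256, 261 and 249.6 FPKM in the 3 mESC libraries and at 171, 181 and 177 FPKM in the D5-LSKCD201- libraries. In D5-LSKCD201+ libraries, Tdh was read at 0.770, 1.22 and 1.17 FPKM. Thus both groups that kept pluripotency RNA were high in Tdh and D5-LSKCD201+ was low, with a ratio of mean levels of 167.2 between D5-LSKCD201- and D5-LSKCD201+. In FL-LSKCD201+ Tdh was lower still (0.40, 0.261 and 0.423 FPKM), and it was lowest in BM-LSKCD201+ (0.0246, 0.223 and 0.349 FPKM). The fetal and adult libraries overlapped, and all other neighbours in this order did not. On the log2(FPKM + 1) scale the difference of D5-LSKCD201+ from D5-LSKCD201- was -6.44 (standard error, SE, 0.11, n = 3 per group) and that from mESC was -6.97 (SE 0.11).

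Gcat, which works on the product of Tdh, did not follow the same order. It was highest in D5-LSKCD201- (84.5, 99.2 and 84.2 FPKM), followed by mESC (57.5, 53.8 and 55.3 FPKM). FL-LSKCD201+ libraries held 31.9, 33.8 and 33.7 FPKM and BM-LSKCD201+ libraries 16.1, 20.0 and 21.9 FPKM. D5-LSKCD201+ was the lowest of the 5 groups, with 9.96, 11.4 and 11.1 FPKM, and no neighbours in this order overlapped. Hence the Gcat level of D5-LSKCD201- was 8.26 times that of D5-LSKCD201+ (log2 difference of the latter from the former -2.93, SE 0.09), and D5-LSKCD201+ was also lower than fetal liver (-1.53, SE 0.06) and bone marrow (-0.77, SE 0.14), where Tdh was near 0. Within a library the ratio of Tdh to Gcat was 4.46 to 4.85 in mESC and 1.82 to 2.10 in D5-LSKCD201-, and at most 0.107 in each library of the CD201+ groups.

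The glycine cleavage system takes glycine apart into carbon dioxide, ammonia and a folate-bound carbon unit. Gldc, its decarboxylase, was read at 48.9, 46.0 and 45.2 FPKM in mESC and at 30.6, 11.8 and 30.2 FPKM in D5-LSKCD201-. It was at 1.31, 2.26 and 2.30 FPKM in D5-LSKCD201+, and was 0.250 to 0.303 FPKM in FL-LSKCD201+ and 0 to 0.0651 FPKM in BM-LSKCD201+. The 5 groups did not overlap in Gldc, and the log2 difference between D5-LSKCD201+ and D5-LSKCD201- was -3.0 (SE 0.46), or -3.43 without D5-LSKCD201- replicate 2, the library with the low value. Between D5-LSKCD201- and mESC, the difference of -1.03 became -0.60 without that library. In the same library the 6 pluripotency markers summed to 901 FPKM, close to the 909 and 918 FPKM of the other two. The 6 stromal markers summed to less there (31.6 against 66.3 and 65.4 FPKM) and the 5 erythroid markers to more (133.5 against 62.4 and 69.9 FPKM), and their part in the Gldc value was not tested.

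Amt, the aminomethyltransferase of the complex, showed another order. Levels were 16.5, 15.6 and 15.9 FPKM in mESC, 24.8, 8.58 and 23.5 FPKM in D5-LSKCD201- and 10.9, 13.4 and 14.1 FPKM in D5-LSKCD201+. The D5-LSKCD201- libraries overlapped with both of these groups because of replicate 2, and the log2 difference of D5-LSKCD201+ from D5-LSKCD201- moved from -0.41 (SE 0.48) to -0.88 without it. The difference was -0.16 without D5-LSKCD201- replicate 1 and -0.20 without D5-LSKCD201- replicate 3. Amt was lower in the tissues, at 3.04, 3.98 and 4.54 FPKM in FL-LSKCD201+ and at 0.777, 0.738 and 0.939 FPKM in BM-LSKCD201+, so that D5-LSKCD201+ cells held 3.32 times the fetal liver level and 15.6 times the bone marrow level. The other subunits were not among the chosen enzymes and were tested, although their list was also drawn up with earlier results of these data known. Gcsh, the lipoyl carrier protein, was at 97.0 ± 1.10 FPKM (mean ± SD, n = 3) in D5-LSKCD201+ and at 168 ± 14.0 FPKM in the CD201- cells (log2 difference -0.78, limma adjusted p = 4.18e-05). It was higher than in fetal liver (56.99 ± 9.23 FPKM, 0.77, limma adjusted p = 0.000812) and than in bone marrow (30.4 ± 1.05 FPKM, 1.64, limma adjusted p = 4.52e-08). Dld, a dehydrogenase shared with other mitochondrial complexes, had means of 49.1 to 79.5 FPKM across the groups and was higher than in bone marrow in both D5-LSKCD201+ (0.65, limma adjusted p = 0.000484) and fetal liver (0.69, limma adjusted p = 0.00368).

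The serine hydroxymethyltransferases move the same carbon unit in 2 compartments, and their balance differed between the groups. Cytosolic Shmt1 was at 141, 143 and 140.1 FPKM in mESC and at 93.7, 107 and 94.2 FPKM in D5-LSKCD201-. It was at 24.0, 24.4 and 23.2 FPKM in D5-LSKCD201+, at 44.1, 37.8 and 36.4 FPKM in FL-LSKCD201+ and at 23.1, 20.0 and 19.6 FPKM in BM-LSKCD201+. All 5 groups were separate, with D5-LSKCD201+ only slightly above bone marrow (log2 difference 0.19, SE 0.08). Mitochondrial Shmt2 was instead highest in D5-LSKCD201- (185, 176 and 188 FPKM), and was at 98.9, 102 and 102 FPKM in D5-LSKCD201+ and at 141, 125 and 118 FPKM in FL-LSKCD201+. mESC (82.9, 82.8 and 79.7 FPKM) and BM-LSKCD201+ (72.6, 85.3 and 80.8 FPKM) were the lowest and overlapped. Against mESC, D5-LSKCD201+ cells were therefore lower in Shmt1 (-2.52, SE 0.02) and slightly higher in Shmt2 (0.30, SE 0.02).

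Consequently, the ratio of Shmt2 to Shmt1 within a library went from 0.569 to 0.586 in mESC and 1.65 to 2.0 in D5-LSKCD201- to 4.12 to 4.41 in D5-LSKCD201+. It was 3.19 to 3.31 in FL-LSKCD201+ and 3.14 to 4.28 in BM-LSKCD201+, the latter overlapping with D5-LSKCD201+. FPKM is scaled by gene length, so that these are ratios of levels, although the deposited loci of both genes extend past their annotated ends. The start regions of both genes are shown because the balance of the pair differs, each from 250 bases before to 50 bases after the transcription start in RefSeq on GRCm38.p6, 5' to 3' on the strand of the gene, with matches to the CCAAT box (CCAAT) and the GC box (GGGCGG) on either strand in capitals.
Shmt1, chr11:60811216-60811515, minus strand: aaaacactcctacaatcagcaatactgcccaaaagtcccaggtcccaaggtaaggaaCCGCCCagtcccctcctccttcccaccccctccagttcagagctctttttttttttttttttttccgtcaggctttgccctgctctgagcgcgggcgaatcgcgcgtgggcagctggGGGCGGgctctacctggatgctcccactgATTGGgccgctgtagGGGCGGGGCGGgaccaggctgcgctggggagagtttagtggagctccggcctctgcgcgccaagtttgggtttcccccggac
Shmt2, chr10:127522395-127522694, minus strand: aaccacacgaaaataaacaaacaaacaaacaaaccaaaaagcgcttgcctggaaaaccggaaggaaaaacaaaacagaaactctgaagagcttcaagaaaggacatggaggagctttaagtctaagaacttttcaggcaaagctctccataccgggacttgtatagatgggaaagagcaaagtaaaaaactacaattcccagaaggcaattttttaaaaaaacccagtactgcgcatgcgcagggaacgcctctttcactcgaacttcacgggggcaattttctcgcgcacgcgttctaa
Shmt1 had 1 CCAAT match and 4 GGGCGG matches, 2 of which overlap each other, and Shmt2 had neither, with a GC content of 60.7% and 42.7%. A window was at hand for 9 of the 10 enzymes, all but Tdh. CCAAT was found in 6 of the 9, against 37.4% of all 32851 windows of this length, and GGGCGG in 6 of the 9, against 35.7%. CACGTG (the E-box) was found in Gcat alone (7.15% of all windows), and the letters TGATGNAA, a form of the ATF4 element, in none (3.97% of all windows). Such a match describes the sequence and is not a binding site.

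Among the Mthfd enzymes, Mthfd1 carries 3 activities in the cytosol and Mthfd1l makes formate in mitochondria. Mthfd1 was at 136, 142 and 140.5 FPKM in mESC and at 96.7, 92.1 and 94.3 FPKM in D5-LSKCD201-. It was at 36.4, 37.0 and 35.4 FPKM in D5-LSKCD201+, between FL-LSKCD201+ (66.3, 53.0 and 53.6 FPKM) and BM-LSKCD201+ (27.3, 29.7 and 27.1 FPKM). Each group was separate from the next. Mthfd1l varied much less, from 36.5, 33.1 and 38.6 FPKM in D5-LSKCD201- and 27.5, 29.0 and 30.4 FPKM in mESC to 23.8, 23.4 and 23.0 FPKM in D5-LSKCD201+ and 25.6, 23.7 and 25.2 FPKM in FL-LSKCD201+. These last 2 groups overlapped, and BM-LSKCD201+ was lowest with 15.1, 12.8 and 12.02 FPKM. Among the sorted groups, the mitochondrial share was largest in D5-LSKCD201+, where the ratio of Mthfd1l to Mthfd1 was 0.632 to 0.654, compared with 0.203 to 0.216 in mESC, 0.359 to 0.410 in D5-LSKCD201-, 0.386 to 0.469 in FL-LSKCD201+ and 0.430 to 0.552 in BM-LSKCD201+.

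Mthfd2, the mitochondrial dehydrogenase and cyclohydrolase of growing cells, marked off the adult cells. It was at 64.1, 64.5 and 63.8 FPKM in mESC and at 52.5, 55.7 and 54.3 FPKM in D5-LSKCD201-. D5-LSKCD201+ (33.1, 32.4 and 32.8 FPKM) and FL-LSKCD201+ (32.7, 35.9 and 34.1 FPKM) overlapped. BM-LSKCD201+ held 3.74, 4.70 and 4.67 FPKM, so that D5-LSKCD201+ was 7.50-fold and FL-LSKCD201+ 7.84-fold above it (log2 differences 2.66, SE 0.09, and 2.72, SE 0.10). Its paralog Mthfd2l was instead highest in the adult cells, at 34.6 ± 5.02 FPKM in BM-LSKCD201+, 18.6 ± 5.11 in FL-LSKCD201+, 9.21 ± 0.567 in D5-LSKCD201+, 14.9 ± 1.85 in D5-LSKCD201- and 3.59 ± 0.711 in mESC. Mthfd2l was lower in D5-LSKCD201+ than in bone marrow (log2 difference -1.79, limma adjusted p = 2.68e-06) and higher than in mESC (1.17, limma adjusted p = 9.93e-06, under the fold threshold of 1 after quantile normalization). Between D5-LSKCD201+ and D5-LSKCD201- it was lower, as Mthfd2 was (-0.63, limma adjusted p = 0.00134). The ratio of Mthfd2 to Mthfd2l accordingly went from 15.04 to 22.7 in mESC, through the overlapping values of D5-LSKCD201- (3.25 to 4.28) and D5-LSKCD201+ (3.34 to 3.8) and 1.52 to 2.55 in FL-LSKCD201+, to 0.120 to 0.132 in BM-LSKCD201+. Beside Mthfd2, a list of 12 proliferation genes summed to 648 to 662 FPKM in bone marrow, 1153 to 1164 in D5-LSKCD201+, 1377 to 1679 in fetal liver, 1903 to 2117 in D5-LSKCD201- and 2323 to 2364 in mESC. Between D5-LSKCD201+ and D5-LSKCD201- the median log2 difference of this list was -0.77, against -0.12 over all genes. Of the 12, 0 were higher and 2 lower (Ccnb1 and Mcm7) by the thresholds used for every gene (all genes, 10.8% and 13.9%). Mki67 (0.07) and Cdk1 (0.004) hardly differed. The part of cell division in the Shmt1, Mthfd1 and Mthfd2 values was not tested.

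**Figure D2:**
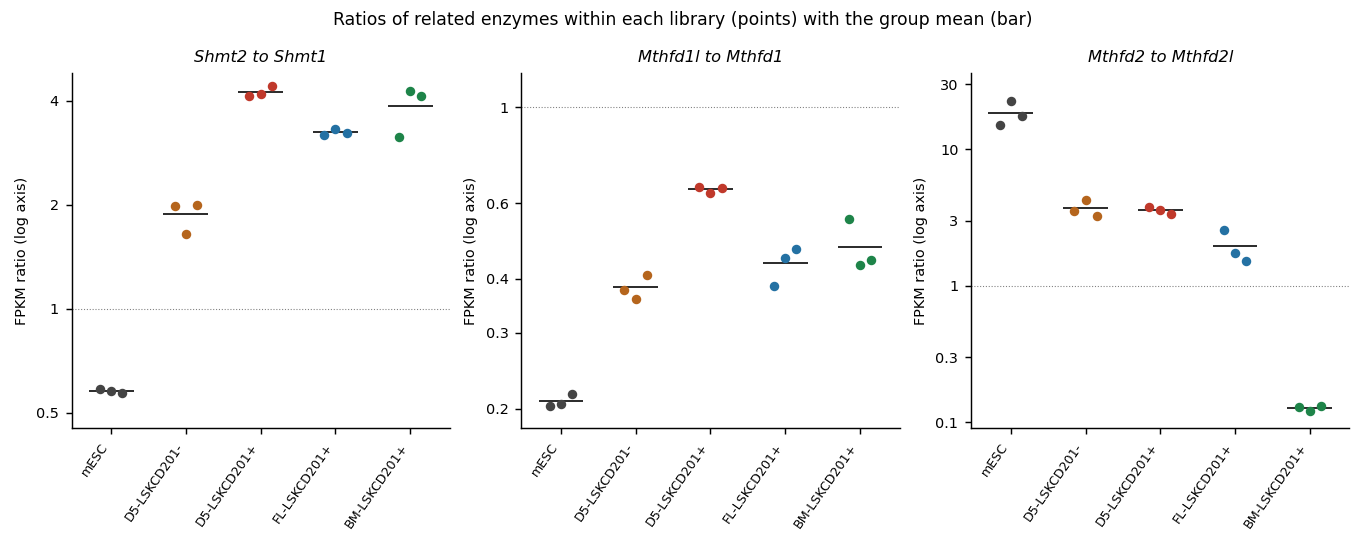
Ratio of FPKM values within each of the 15 sorted libraries, on log axes, for Shmt2 to Shmt1, Mthfd1l to Mthfd1 and Mthfd2 to Mthfd2l, with points for libraries, a bar for the group mean and a dotted line at 1. The first pair of ratios is highest or among the highest in D5-LSKCD201+, and only BM-LSKCD201+ lies under 1 for Mthfd2 to Mthfd2l, at 0.120 to 0.132.

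Phgdh set the induced CD201+ cells apart from those of both tissues. Phgdh was at 39.2, 40.5 and 41.4 FPKM in D5-LSKCD201+, against 362, 295 and 301 FPKM in FL-LSKCD201+ and 211, 219 and 226 FPKM in BM-LSKCD201+. mESC (91.7, 93.7 and 92.3 FPKM) and D5-LSKCD201- (135, 142 and 139 FPKM) lay between them. Thus D5-LSKCD201+ was the lowest and fetal liver the highest of 5 separate groups, with a 7.90-fold gap between them (log2 difference -2.95, SE 0.10), and the gap to bone marrow was 5.42-fold (-2.41, SE 0.04).

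Of the enzymes that follow Phgdh, Psat1 showed another order, whereas Psph was on average also lowest in D5-LSKCD201+ and highest in fetal liver. Psat1, the transaminase of the second step, was at 74.2 ± 1.73 FPKM in D5-LSKCD201+ and 69.2 ± 6.98 FPKM in FL-LSKCD201+, a difference that did not pass the test (log2 difference 0.10, limma adjusted p = 0.321). Against bone marrow (26.1 ± 2.45 FPKM), Psat1 was higher in D5-LSKCD201+ (1.47, limma adjusted p = 8.30e-07) although Phgdh was lower. Psph, the phosphatase of the last step, was at 17.5 ± 0.857 FPKM in D5-LSKCD201+, and this was below its level in D5-LSKCD201- (47.6 ± 2.64 FPKM, -1.39, limma adjusted p = 2.72e-06), mESC (48.0 ± 2.34 FPKM, -1.40, limma adjusted p = 1.60e-08) and fetal liver (57.8 ± 12.9 FPKM, -1.64, limma adjusted p = 0.000112). It was also lower than in bone marrow (37.4 ± 4.59 FPKM, -1.05, limma adjusted p = 2.17e-05), a difference under the fold threshold after quantile normalization or without BM-LSKCD201+ replicate 1 (lowest size -0.91).

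**Figure D3:**
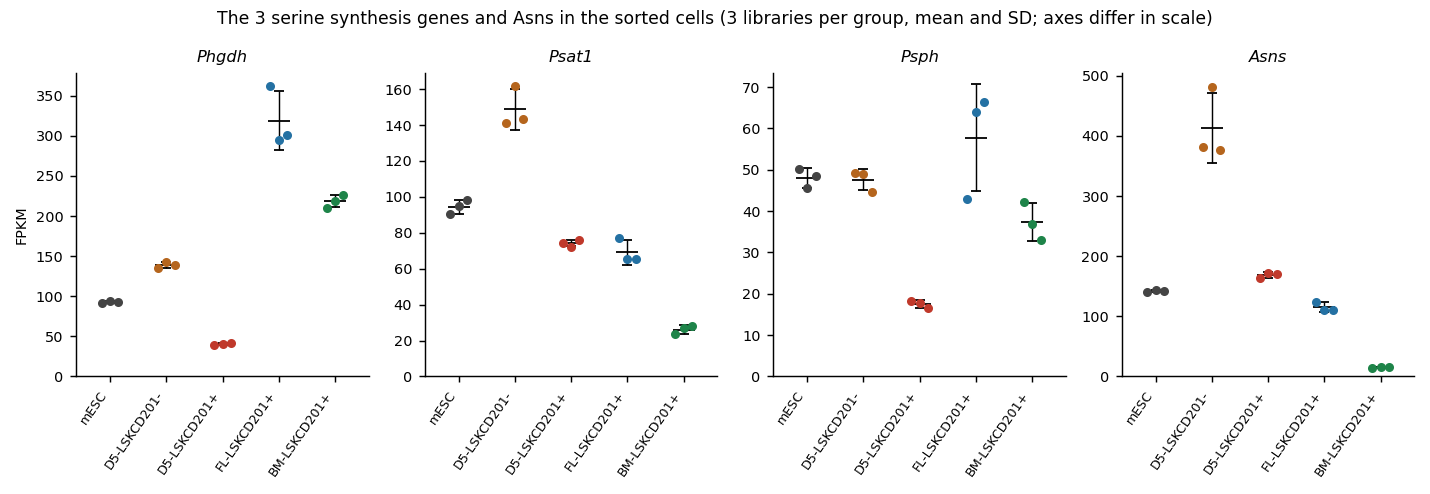
FPKM of the serine synthesis enzymes Phgdh, Psat1 and Psph and of the asparagine synthetase Asns in the 15 sorted libraries, with points for libraries and the mean and SD of each group of 3, on axes of different scale. Phgdh is highest in fetal liver (319 FPKM) and lowest in D5-LSKCD201+ (40.4 FPKM), whereas Psat1 is highest in D5-LSKCD201- (149 FPKM) and lowest in bone marrow (26.1 FPKM).

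The start regions of Mthfd2, lowest in bone marrow, and of Phgdh, lowest in D5-LSKCD201+, are given in the same way. The RefSeq starts of Mthfd2 and Shmt1 lie inside the gene spans of GENCODE M21 given below, so that their windows do too.
Mthfd2, chr6:83317555-83317854, minus strand: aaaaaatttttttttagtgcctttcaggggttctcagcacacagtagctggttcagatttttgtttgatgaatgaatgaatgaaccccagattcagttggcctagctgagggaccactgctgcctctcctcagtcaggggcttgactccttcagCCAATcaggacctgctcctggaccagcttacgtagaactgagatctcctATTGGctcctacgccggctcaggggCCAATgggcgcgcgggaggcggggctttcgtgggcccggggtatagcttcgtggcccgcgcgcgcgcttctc
Phgdh, chr3:98339920-98340219, minus strand: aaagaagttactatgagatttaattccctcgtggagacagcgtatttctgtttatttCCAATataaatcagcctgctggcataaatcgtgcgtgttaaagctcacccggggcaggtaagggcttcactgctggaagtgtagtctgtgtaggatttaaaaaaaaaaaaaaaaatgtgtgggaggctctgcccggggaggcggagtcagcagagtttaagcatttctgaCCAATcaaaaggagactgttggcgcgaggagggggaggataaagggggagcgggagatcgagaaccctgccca
Mthfd2 had 3 CCAAT matches and Phgdh 2, and neither had a GGGCGG match.

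Set side by side, the comparisons counted the 10 enzymes as follows, with the thresholds used for every gene (a limma adjusted p under 0.05 and a log2 difference of at least 1). For the 10 these counts are a description and no test, since the choice of the genes fixed them in part, and nothing is read from them against the share of all genes. Between D5-LSKCD201+ and D5-LSKCD201-, none was counted higher and 6 lower (Tdh, Gldc, Gcat, Shmt1, Phgdh and Mthfd1), where 10.8% of all 13691 genes tested were higher and 13.9% lower. The median log2 difference was -1.56 over the 10 and -0.12 over all genes. Against mESC, Tdh, Gldc (-4.03), Shmt1, Gcat (-2.26), Mthfd1 (-1.91) and Phgdh (-1.18) were counted lower and none higher (all genes, 19.5% higher and 18.1% lower), with a median of -1.54 against -0.07. The comparisons share the libraries of D5-LSKCD201+ or mESC. Between D5-LSKCD201- and mESC, Shmt2 was counted higher (log2 difference 1.15) and Gldc lower (all genes, 10.9% and 3.48%), and the median was -0.07 against 0.05. Gldc was not counted in 5 of 15 alternative settings, namely without the filter on low values, without D5-LSKCD201- replicate 2 (-0.60) and without any 1 of the mESC libraries. Over all settings its difference ranged from -1.25 to -0.60.

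Against fetal liver, D5-LSKCD201+ was counted higher in Amt (1.51) and Gldc (1.2) and lower in Phgdh and Gcat (all genes, 15.1% and 19.6%), with a median of -0.21 against -0.16. Against bone marrow, it was counted higher in Amt (2.92), Mthfd2 (2.66) and Gldc (1.5) and lower in Phgdh (all genes, 17.5% and 27.2%), with a median of 0.57 against -0.23. In both comparisons Gldc passed the filter on low values only through D5-LSKCD201+ (1.96 FPKM on average, against 0.268 in fetal liver and 0.0348 in bone marrow), so that it had to differ. Over the alternative settings its differences reached 2.45 and 3.92. Tdh, which passed the filter in the same way, was also counted higher in both with a pseudocount of 0.1. All genes at that setting were 2438 higher and 3425 lower of 13627, and 2741 and 4489 of 13775. Fetal liver was counted higher than bone marrow in Mthfd2 (2.72), Amt (1.41) and Mthfd1 (1.01) of the 8 enzymes that passed the filter of 0.5 FPKM, which Tdh and Gldc did not (all genes, 7.78% and 11.3%), with a median of 0.87 against -0.13. The Mthfd1 difference was 0.90 without FL-LSKCD201+ replicate 1 and 0.99 without BM-LSKCD201+ replicate 1 or replicate 3, each under the fold threshold. In 3D+OP9 against 3D+0.1% gelatin, Tdh was counted higher and none lower (all genes, 2.11% and 0.509%), with a median of -0.03 against 0.01. Tdh was not counted without the filter on low values or without any 1 of the gelatin libraries, which are 4 of 14 alternative settings.

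**Figure D4:**
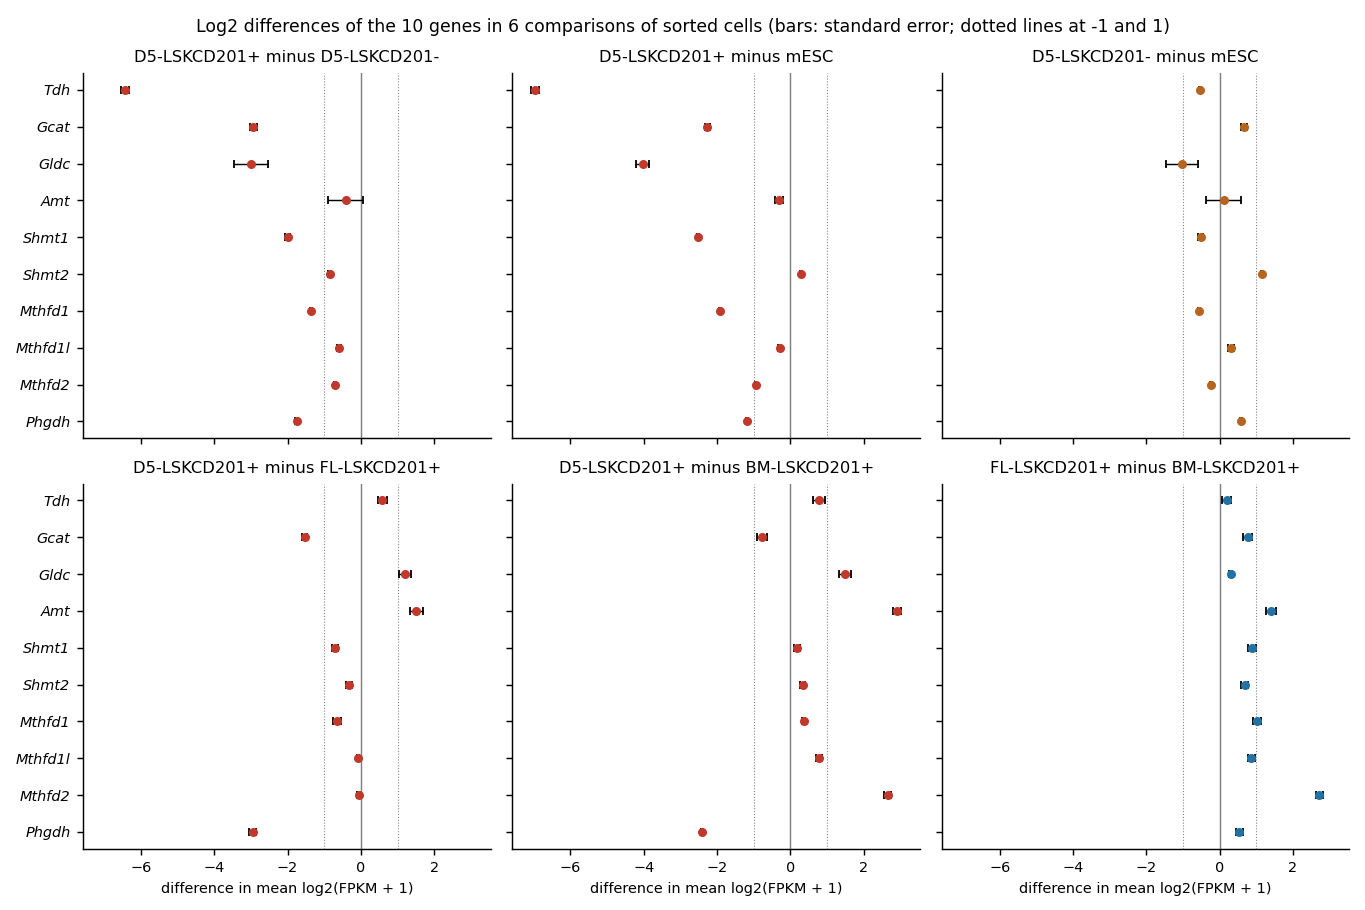
Log2(FPKM + 1) differences of the 10 enzymes in 6 comparisons of sorted cells, with a point for the difference, a bar for its SE (n = 3 libraries per group) and dotted lines at -1 and 1. Tdh lies farthest to the left for D5-LSKCD201+ against D5-LSKCD201- and mESC (-6.44 and -6.97), with Gldc at -3.0 and -4.03, and Phgdh lies to the left against fetal liver and bone marrow (-2.95 and -2.41).

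The rest of the pathway was followed in 47 further genes. Genes averaging under 0.5 FPKM in one group passed the filter on low values only through the other group, so that they had to differ, and they are given by their levels with no p-value. Between D5-LSKCD201+ and D5-LSKCD201-, 2 were higher and 8 lower of the 37 tested (all genes, 10.8% and 13.9%), with a median log2 difference of -0.69 against -0.12 over all genes. Both transsulfuration enzymes, which turn homocysteine into cysteine, were lower in CD201+ cells, Cth by -3.78 (limma adjusted p = 1.31e-07) and Cbs by -2.95 (limma adjusted p = 4.14e-07). Pipox, an oxidase of pipecolate and sarcosine, differed by -3.21 (limma adjusted p = 2.22e-07). The folate receptor gene Folr1, 1 of the 8 lower genes, passed the filter only through D5-LSKCD201- (21.6 FPKM on average, against 0.204). Serine racemase Srr was higher (1.27, limma adjusted p = 3.42e-05), as was sarcosine dehydrogenase Sardh (1.01, limma adjusted p = 0.000392, which was under the fold threshold in 3 of 15 alternative settings). None of the 9 folate cycle genes tested by limma passed both thresholds here. An unadjusted p under 0.05 was found for 7 of them and for 71.1% of all genes tested, in both directions, with Aldh1l1 at -0.93, Mthfs at -0.84 and Tyms at 0.27.

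Against mESC, D5-LSKCD201+ was higher in 5 and lower in 10 of 37 genes (all genes, 19.5% and 18.1%), with a median of -0.35 against -0.07. The lower genes included Pipox (-4.92, limma adjusted p = 2.51e-11), Cth (-3.20, limma adjusted p = 1.79e-10) and Cbs (-2.22, limma adjusted p = 5.69e-08). The mitochondrial carrier gene Sfxn3 was increased (2.36, limma adjusted p = 5.48e-09), as was Srr (1.64). Of the counted genes, 2 of the 5 higher and 2 of the 10 lower passed the filter through one group only. Among them were Sardh (2.14 FPKM on average, against 0.147 in mESC), the threonine aldolase Tha1 (2.76 against 0.429) and Folr1 (0.204 against 65.3). In D5-LSKCD201- against mESC, 5 genes were higher and 2 lower of 37 (all genes, 10.9% and 3.48%), with a median of 0.08 against 0.05. The increase included the folate enzymes Mthfd2l (1.80, limma adjusted p = 5.09e-05) and Aldh1l1 (1.77, limma adjusted p = 8.73e-06), and the amino acid transporter Slc1a4 (1.63, limma adjusted p = 1.67e-05), and the decrease Pipox (-1.71, limma adjusted p = 1.91e-06) and Folr1 (-1.55, limma adjusted p = 6.81e-06). The dehydratase-like Sdsl, also counted higher, passed the filter only through D5-LSKCD201- (4.79 FPKM on average, against 0.16).

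Relative to fetal liver, 1 of 38 genes was higher in D5-LSKCD201+ and 9 were lower (all genes, 15.1% and 19.6%), with a median of -0.28 against -0.16. Lower genes included Mthfs, which recycles 5-formyltetrahydrofolate (-2.30, limma adjusted p = 3.85e-06), and the reduced folate carrier Slc19a1 (-2.09, limma adjusted p = 6.19e-06). Of the 9, 3 passed the filter only through fetal liver, among them the folate receptor gene Folr2 (2.47 FPKM on average, against 0.0165). Cth was the gene higher in D5-LSKCD201+ (1.09, limma adjusted p = 0.000232, and 0.96 without FL-LSKCD201+ replicate 1). Relative to bone marrow, 7 of 34 genes were higher and 11 lower (all genes, 17.5% and 27.2%), with a median of -0.19 against -0.23. Of the 7 higher, 3 passed the filter only through D5-LSKCD201+, among them Cth (3.8 FPKM on average, against 0.151) and Slc1a4 (4.92 against 0.128). Thymidylate synthase Tyms was also higher (2.03, limma adjusted p = 9.31e-08), whereas Sdsl (-4.97, limma adjusted p = 1.35e-08), Mthfs (-3.02, limma adjusted p = 1.01e-08), Sfxn3 (-2.22, limma adjusted p = 9.00e-08) and Slc19a1 (-2.01, limma adjusted p = 7.29e-08) were lower. The Sdsl level was 59.3 ± 8.27 FPKM in bone marrow and averaged at most 4.79 FPKM in every other sorted group.

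Between the tissue groups, fetal liver was higher than bone marrow in 8 and lower in 4 of 38 genes (all genes, 7.78% and 11.3%), with a median of 0.26 against -0.13. Tyms was among the higher genes, at 1.48 (limma adjusted p = 0.000502), but 5 of the 8 passed the filter only through fetal liver, among them Folr2 (2.47 FPKM on average, against 0.0371) and the methyltransferase Bhmt (2.06 FPKM, and listed at 0 in every bone marrow library). Of the 4 lower, Sdsl passed it only through bone marrow (59.3 FPKM on average, against 0.389). The others were Sfxn3 (-1.49, limma adjusted p = 7.66e-05), Aldh1l1 (-1.37, limma adjusted p = 7.21e-05) and Tha1 (-1.31, limma adjusted p = 0.000317).

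Many genes of serine synthesis and mitochondrial folate metabolism are known targets of the stress factor ATF4, and 10 ATF4 and stress genes were therefore read beside them. The shares of all genes counted in each comparison are those given above. Asparagine synthetase Asns was at 413 ± 58.8 FPKM in D5-LSKCD201-, 169 ± 4.38 in D5-LSKCD201+, 142 ± 1.18 in mESC, 115 ± 8.13 in FL-LSKCD201+ and 14.9 ± 0.685 in BM-LSKCD201+. Like Mthfd2 and Psat1, it was lowest in bone marrow, and both CD201+ comparisons with bone marrow passed (D5-LSKCD201+, 3.42, limma adjusted p = 3.33e-09, and FL-LSKCD201+, 2.86, limma adjusted p = 1.29e-06). The RNA of Atf4 was highest in bone marrow, with 261 ± 9.63 FPKM against 78.7 FPKM on average in D5-LSKCD201+ (-1.71, limma adjusted p = 3.39e-08), as was that of its partner Ddit3 (79.8 and 7.87 FPKM, -3.19, limma adjusted p = 2.53e-08). ATF4 protein was not measured in these libraries, and the part of ATF4 in the enzyme levels was not tested. Of the 10 genes, between D5-LSKCD201+ and D5-LSKCD201- none was higher and 3 were lower (Nupr1, -1.60, limma adjusted p = 0.000168, Asns, -1.28, limma adjusted p = 2.35e-05, and Sesn2, -1.01, limma adjusted p = 0.000207, which was not counted in 5 of 15 alternative settings). The counts higher and lower were 1 and 1 against mESC, 4 and 2 against fetal liver and 3 and 3 against bone marrow (Chac1, 1 of the 3 higher, passed the filter only through D5-LSKCD201+), and 1 and 0 in D5-LSKCD201- against mESC. In fetal liver against bone marrow, 1 of the 9 tested was higher (Asns) and 3 were lower, namely Trib3 (-2.43, limma adjusted p = 4.08e-06), Ddit4 (-2.39, limma adjusted p = 1.85e-05) and Ddit3 (-1.03, limma adjusted p = 0.000906, and -0.86 without FL-LSKCD201+ replicate 1).

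The cocultures compared total cells of the same induction kept with OP9 cells or on gelatin. Their marker sums, given below, differed as well. Tdh was at 48.5, 45.0 and 94.9 FPKM in 3D+OP9 and at 19.1, 21.4 and 25.9 FPKM in 3D+0.1% gelatin. Every OP9 library was above every gelatin library, by 2.84-fold in the means (log2 difference 1.39, SE 0.36), and the difference was 1.05 without 3D+OP9 replicate 3, the highest library. Shmt2 also did not overlap (96.4, 110.5 and 106 FPKM against 76.8, 88.0 and 92.5 FPKM), with a difference of only 0.28 (SE 0.10).

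The other 8 enzymes overlapped between the cocultures, and of all 12958 genes tested 28.7% did not. Gldc was high in the same OP9 library as Tdh (43.8, 43.4 and 80.7 FPKM against 39.4, 46.9 and 52.4 FPKM), and its difference went from 0.22 to -0.07 without that library. In gelatin, replicate 1 was low in Mthfd2 (30.01 FPKM, against 59.0 and 58.0 in the other libraries) and in Phgdh (92.3 FPKM, against 127 and 128). Psat1 (105 FPKM, against 222 and 215) and Asns (79.6 FPKM, against 144 and 159) were low in the same library. The Mthfd2 difference accordingly went from -0.20 (SE 0.35) to -0.52 without it, and over all alternative settings it ranged from -0.52 to -0.04.

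Of 37 other pathway genes tested in the cocultures, only Cth was counted (all genes, 2.11% higher and 0.509% lower), and it was lower with OP9 (12.1, 12.9 and 12.2 FPKM against 23.1, 33.8 and 31.9 FPKM, log2 difference -1.17, limma adjusted p = 0.00449). None of the 10 ATF4 and stress genes and none of the 12 proliferation genes was counted by limma, and 2 and 3 of them had an unadjusted p under 0.05, against 22.9% of all genes tested. Beside Tdh, the pluripotency genes were split, since Esrrb (24.9 to 46.1 FPKM with OP9, 2.01 to 2.19 with gelatin, 3.42, limma adjusted p = 0.000623) and Zfp42 (2.67, limma adjusted p = 0.00215) were higher with OP9, whereas Nanog (-0.98, limma adjusted p = 0.0197) and Pou5f1 (-0.71, limma adjusted p = 0.0446) were lower, both by less than the fold threshold. The 6 pluripotency markers summed to 672 to 1008 FPKM with OP9, highest in replicate 3, and to 1066 to 1193 FPKM with gelatin. The 6 stromal markers summed to 57.7 to 68.1 FPKM with OP9 and 25.2 to 36.7 FPKM with gelatin, and 5 endothelial markers to 68.8 to 83.8 and 8.84 to 18.8 FPKM. The 5 erythroid markers summed to 205 to 756 FPKM with OP9, highest in replicate 3, and to 1.06 to 18.1 FPKM with gelatin, and Hbb-bh1, an embryonic globin gene among them, was higher with OP9 (6.56, limma adjusted p = 0.00449). The part of such cells in the Tdh difference was not tested.

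**Figure D5:**
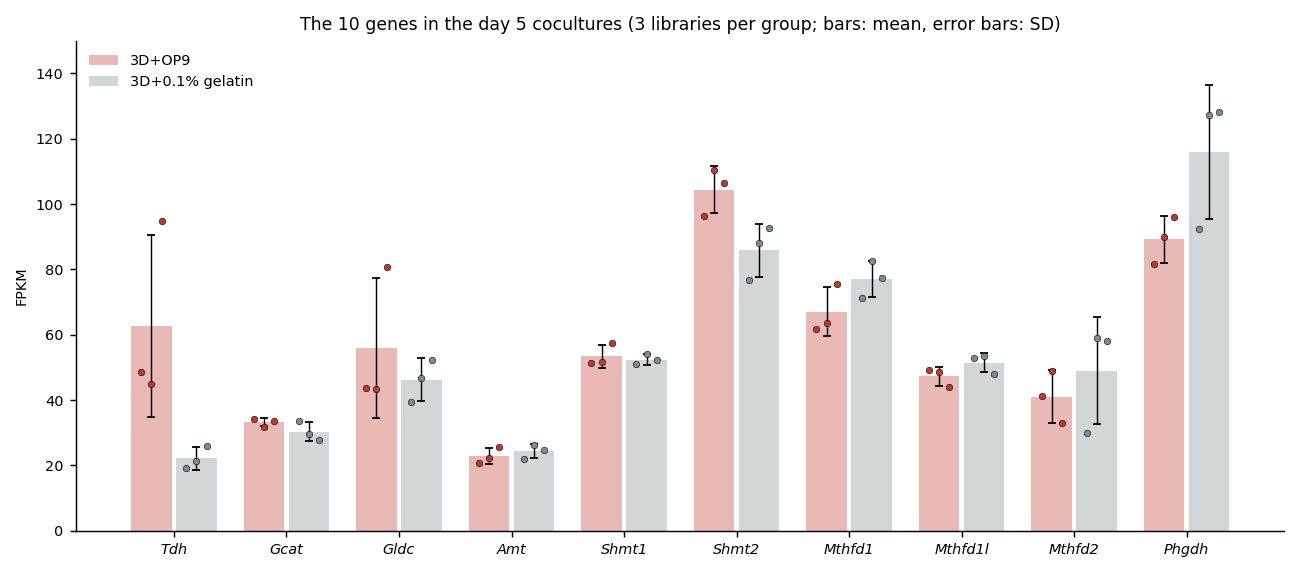
FPKM of the 10 enzymes in the 6 coculture libraries, with points for libraries, bars from 0 for the mean and error bars for the SD of each group of 3. Tdh is at 45.0 to 94.9 FPKM with OP9 and 19.1 to 25.9 FPKM on gelatin, and 8 enzymes overlap between both cultures.

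Added over the 10 enzymes, mESC (913 to 931 FPKM) and D5-LSKCD201- (907 to 923 FPKM) held overlapping sums, and D5-LSKCD201+ held the lowest (278 to 288 FPKM), below BM-LSKCD201+ (369 to 394 FPKM) and FL-LSKCD201+ (606 to 707 FPKM). The make-up of the sum differed as well. Tdh gave 27.7% of it in mESC, 19.3% in D5-LSKCD201- and 0.370% in D5-LSKCD201+. In D5-LSKCD201+ the largest share was that of Shmt2 (35.5%), while in FL-LSKCD201+ and BM-LSKCD201+ it was that of Phgdh (49.7% and 56.8%).

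Among 8912 genes averaging 5 FPKM or more, those with a log2 pattern most like Tdh over the 15 sorted libraries included Eras, Fgfbp1 and Utf1 (Pearson r = 0.999 each) and Nanog (r = 0.998). For Phgdh they were Acss1 (r = 0.995), Dhrs4 (0.980), Rrp1 (0.978), Ggact (0.975) and Slc19a1 (0.967). These correlations describe 5 groups of 3 libraries that share culture or tissue, and no test was made.

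On GRCm38 the enzymes lie at separate places (GENCODE M21). The threonine and glycine genes are Tdh (chr14:63492347-63509092), Gcat (chr15:79030874-79038353), Gldc (chr19:30098447-30175429) and Amt (chr9:108296853-108302302). Shmt1 spans chr11:60788104-60811718 and Shmt2 chr10:127517123-127522444. Mthfd1 (chr12:76255298-76319803), Mthfd1l (chr10:3973118-4167081), Mthfd2 (chr6:83305691-83325908) and Phgdh (chr3:98313170-98339990) complete the list. Shmt2 shares 32 exon bases (1.03%) with the opposite-strand gene Ndufa4l2, which averaged 2.47 FPKM in mESC, 47.1 in D5-LSKCD201-, 22.3 in D5-LSKCD201+, 1.52 in FL-LSKCD201+ and 0.0599 in BM-LSKCD201+. Shmt1 shares 184 exon bases (4.74%) with the opposite-strand Smcr8 (0.850 to 2.06 FPKM in the group means), and 47.5% of the Gcat exon bases are shared with a second Gcat model. The deposited loci of 3 of the 10 enzymes, Gcat, Shmt1 and Shmt2, extend past the annotated gene and may take in reads of neighbours. Whether counting used strand is not given in the sources used here, and the part of these neighbours in the values was not tested.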

How the data were processed

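Messenger RNA libraries (21, in 7 groups of 3) were mapped to GRCm38 with HISAT2 2.0.5 and quantified with StringTie 1.3.3 and Cuffdiff 1.3.0, as credited in the submitters' processing notes and the study's methods. The notes list mm9 as well, without saying for which step, and the loci in the sorted-cell table lie at GRCm38 positions. The authors deposited FPKM values, scaled to gene length and library size, in separate tables for cocultures and sorted cells, so tests stayed within a table, and depth is unknown. FPKM values summed to 483263 to 508307 per coculture library and 508622 to 620332 per sorted library. Coculture values had 2 decimals, and 3578 of their genes were blank throughout.

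From these, log2(FPKM + 1) was fitted with limma 3.58.1 (R 4.3.3, trend) per pair of groups on genes averaging at least 0.5 FPKM, with Benjamini-Hochberg adjustment over all of them. Fold changes on this scale understate low genes. The script was tested on simulated data. An exact permutation test of 3 against 3 could not go below p = 0.1. The study calls replicates biological, and the labels do not say that they came from separate cultures or animals, so p-values may measure technical spread. Same-numbered libraries deviated together in fetal liver against bone marrow (r = 0.242, 0.202 and 0.159), the only comparison with every r over 0.1, as a hint from the data.

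The 10 enzymes and all lists (pathway groups, ATF4 and stress, proliferation and cell type markers) were chosen with earlier results of these data known. Named were all 10 enzymes, Psat1, Psph, Gcsh, Dld and Mthfd2l, up to 4 counted pathway or stress genes per direction and comparison, and the 5 genes most like Tdh and Phgdh. Others were named beside a result. Some genes that this rule names are not reported here. Promoters came from RefSeq (GRCm38.p6) and loci from GENCODE M21. Alternatives were a pseudocount of 0.1, no filter, quantile normalization, other fits, adjusted p alone, a replicate block, leaving out each library and, chosen after seeing the data, averaging the closest pair of replicates.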

Additional observations from a re-analysis of the deposited data

How the results depend on the processing

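No enzyme, other pathway gene or stress gene that was counted changed sign under any alternative, and marker genes were not run under the alternatives. With an adjusted p alone, without the fold threshold, counts of the 10 enzymes rose to 10 (D5-LSKCD201+ against mESC), 9 (D5-LSKCD201- against mESC), 8 (D5-LSKCD201+ against fetal liver), 10 (against bone marrow) and 8 (fetal liver against bone marrow), and those of other pathway genes to 30 (D5-LSKCD201+ against D5-LSKCD201-), 31 (against mESC), 27 (against fetal liver), 22 (D5-LSKCD201- against mESC), 28 (fetal liver against bone marrow) and 2 (cocultures). In D5-LSKCD201+ against D5-LSKCD201-, this setting added Mthfd1l, Shmt2 and Mthfd2 to the enzymes counted. At that setting 68.3% of all genes tested were called in D5-LSKCD201+ against D5-LSKCD201-, 85.5% against mESC, 72.1% against fetal liver, 83.4% against bone marrow, 54.6% in D5-LSKCD201- against mESC, 55.1% in fetal liver against bone marrow and 6.88% in the cocultures, so nothing is read from the counts. Without the filter on low values, 1 enzyme was counted in D5-LSKCD201- against mESC (Gldc lost), where 1453 of all 27968 genes were higher and 414 lower. In the cocultures 0 were counted (Tdh lost), where 198 of all 19321 genes were higher and 44 lower. With libraries left out, these 2 enzyme counts ranged from 1 to 2, Gldc being lost without D5-LSKCD201- replicate 2 or any mESC library, and from 0 to 1, Tdh being lost without any gelatin library, where its difference was 1.29 to 1.5. Of all genes, 1420 to 1544 were then higher and 407 to 552 lower in D5-LSKCD201- against mESC. In the cocultures these were 172 to 317 and 37 to 127. In the cocultures, counts of other pathway genes were 2 with a pseudocount of 0.1, 2 after quantile normalization, 2 with the replicate block and 1 to 2 with libraries left out. The replicate block changed no count of the 10 enzymes. A pseudocount of 0.1 added Tdh as higher in D5-LSKCD201+ than in fetal liver (all genes, 2438 higher and 3425 lower of 13627). It also added Tdh against bone marrow (all genes, 2741 and 4489 of 13775). Over the settings these Tdh differences reached 1.32 and 2.11, and those of Gldc 2.45 and 3.92. Quantile normalization counted 5 enzymes in fetal liver against bone marrow (all genes, 1201 higher and 1232 lower of 13503), adding Shmt1 (1.04) and Mthfd1l (1.04). It also added Mthfd1l (1.01) in D5-LSKCD201+ against bone marrow. It moved the median of all genes by 0.21 in D5-LSKCD201+ against bone marrow, where 2406 higher and 3753 lower genes became 2884 and 2985. The median moved by 0.10 in D5-LSKCD201+ against D5-LSKCD201-, where 1475 higher and 1904 lower genes became 1704 and 1678. It moved by 0.11 in D5-LSKCD201+ against fetal liver and in fetal liver against bone marrow. In D5-LSKCD201- against mESC it moved by -0.14, where 1476 and 473 became 1197 and 763. The cause was not tested. Of the enzyme differences, 692 stayed within the replicate spread and 36 moved. FPKM values without read numbers leave the precision of Tdh and Gldc in tissue cells unknown.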
